A study of Mus musculus with 36 samples.

Results

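The clustered histone genes were taken as every protein-coding gene of the deposited count table whose GENCODE M21 mouse symbol starts with Hist1h, Hist2h, Hist3h or Hist4. The rule found 65 of the 49671 genes in the table: 6 genes for the linker histone H1, 18 for H2A, 16 for H2B, 12 for H3 and 13 for H4. On GRCm38 (mm10), 52 of them lie in the Hist1 cluster on chromosome 13, 10 in Hist2 on chromosome 3, 2 in Hist3 on chromosome 11 and 1 at Hist4 on chromosome 6. Another 3 genes with such symbols are annotated as pseudogenes and were left out.

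The study sequenced RNA from mouse embryonic stem cells of 3 conditional lines, named for Bod1L, Setd1a and Mll2 (the protein of the gene Kmt2b), which belong to complexes that methylate lysine 4 of histone H3 or act with them. Each line was grown as knockout (KO) and as wild type (WT) cells in 3 media with 2 replicates a group, which gives 36 libraries in 18 groups. The media were the EpiSC medium with Activin A and FGF2 (labelled epiblast-like stem cells), 2i with LIF and the inhibitors PD0325901 and CT99021 (labelled naive embryonic stem cells), and FCS with LIF and fetal calf serum (labelled cycling embryonic stem cells). The titles name tamoxifen for KO libraries and not for WT libraries, so tamoxifen and the loss of the gene cannot be told apart. Each line is 1 line of cells; the replicates are labelled biological, with no statement of what was grown separately, so the p-values measure the spread between these samples.

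Most mRNAs end in a poly(A) tail. The mRNAs of the clustered, replication-dependent histones instead end just after a short stem-loop, which the protein SLBP binds, and cells make them in bulk during S phase, when new DNA must be packed, and destroy them when replication stops. The genes stand in clusters without introns, and many copies encode the same protein. Some of these genes can also give a longer, polyadenylated RNA that runs past the stem-loop, known mostly from differentiated or slowly dividing cells. The labels' protocols name 2 rounds of poly(A) selection and also a removal of rRNA, and do not say how much RNA without a tail was left. The values therefore measure whatever histone RNA these steps kept and not the total histone mRNA of the cell.

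The stem-loop of these mRNAs is shown first because it is the feature that sets them apart from the RNA that a poly(A) selection is meant to keep. Of the 65 members, 60 are annotated as a single exon block. The 16-base pattern was found after the stop codon in annotated transcripts of 42 of the 65 members. Sought anywhere in a transcript, it was found in 78 of 21951 protein-coding genes (0.355%), members included. Only 49 of the 65 members have an annotated transcript with over 50 bases after the coding part, so the pattern can be missed in the others. Some of the 49 also lacked it, among them Hist1h2bc, Hist1h2bq and Hist2h2be. The search used a fixed pattern, so a stem-loop of another form was not found. In the 42 members it came in 6 forms, written here as DNA with the 4 loop bases in capitals, each with 1 example on GRCm38.
Hist1h1c, chr13:23739512-23739527, plus strand: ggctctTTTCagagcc
Hist1h4m, chr13:21812129-21812144, plus strand: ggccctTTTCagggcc
Hist1h3c, chr13:23745047-23745062, minus strand: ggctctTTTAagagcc
Hist1h4i, chr13:22040966-22040981, minus strand: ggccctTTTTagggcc
Hist1h4j, chr13:21735437-21735452, plus strand: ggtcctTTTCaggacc
Hist2h2ac, chr3:96220418-96220433, minus strand: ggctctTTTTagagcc
The form of Hist1h1c was the most frequent, with 24 members of types H1, H2A, H2B and H3. The forms of Hist1h4m, Hist1h4i and Hist1h4j were found in H4 members, with 7, 2 and 2 of them. The pattern began 21 to 58 bases after the stop codon.

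The coding sequences show how alike the most abundant copies are. All 13 H4 members encode 1 protein sequence, 9 of the 18 H2A members share 1, and 7 of the 12 H3 members share 1, whereas the 6 H1 members all differ. Hist1h2ao and Hist1h2ai, the H2A genes with the highest levels here, encode the same protein and differ at 5 of 390 coding bases (98.7% identity): T24C, C51T, C150G, A387G and A390G, with the base of Hist1h2ao first and positions counted from 1 at the A of the start codon. Their first 60 coding bases, with those of Hist1h2an, are given below in lower case, with the 3 positions that differ among them in capitals.
Hist1h2ao, chr13:21810467-21810526, plus strand: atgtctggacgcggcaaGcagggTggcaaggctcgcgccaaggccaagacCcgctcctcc
Hist1h2ai, chr13:21716422-21716481, plus strand: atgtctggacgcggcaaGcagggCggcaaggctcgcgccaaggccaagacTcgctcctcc
Hist1h2an, chr13:21787159-21787218, minus strand: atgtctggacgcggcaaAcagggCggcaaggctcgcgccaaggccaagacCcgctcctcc
Over 80% of the 50-base stretches of 16 members occur also in transcripts of other annotated genes, mostly other members, and these 16 carry 72.9% of the reads counted to the family. The split of reads among such copies is therefore uncertain. Hist1h2ao shares the most stretches with Hist1h2ap (93.5%) and Hist1h2ai with Hist1h2ad (84.0%), so this is not confined to Hist1h2ao and Hist1h2ai.

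RefSeq gives a promoter window, 250 bases before the start to 50 bases after it, for 59 of the 65 members, 60 windows in all. CCAAT, the motif of the factor NF-Y (searched as CCAAT on both strands), stood in 85.0% of these windows against 37.4% of 32851 windows of all genes. TATAAA (both strands) stood in 58.3% against 13.6%. ATGCAAAT, the octamer bound by Oct factors (both strands), stood in 21.7% against 1.74%, and every window with it belonged to an H2A gene (7 of 17) or an H2B gene (6 of 15). CCAAT stood in every window of H1, H2A, H2B and H3 genes but in 3 of 12 windows of H4 genes. The windows of the member with the highest level and of the 2 members whose counts rose with the loss of Bod1L and of Setd1a are shown with these matches in capitals, from RefSeq on GRCm38.p6.
Hist1h2ao, chr13:21810117-21810416, plus strand: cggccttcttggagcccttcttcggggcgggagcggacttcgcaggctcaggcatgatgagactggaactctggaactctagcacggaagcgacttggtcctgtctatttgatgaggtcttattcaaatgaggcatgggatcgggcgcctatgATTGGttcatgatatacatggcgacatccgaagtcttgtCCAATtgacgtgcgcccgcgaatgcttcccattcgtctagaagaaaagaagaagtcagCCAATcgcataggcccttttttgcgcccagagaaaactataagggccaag
Hist1h1c, chr13:23738557-23738856, plus strand: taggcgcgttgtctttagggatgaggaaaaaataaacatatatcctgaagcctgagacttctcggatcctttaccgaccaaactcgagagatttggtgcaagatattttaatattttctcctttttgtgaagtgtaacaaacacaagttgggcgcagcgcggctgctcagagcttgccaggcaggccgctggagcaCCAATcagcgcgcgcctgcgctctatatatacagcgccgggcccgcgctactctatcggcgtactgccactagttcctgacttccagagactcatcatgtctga
Hist3h2a, chr11:58954435-58954734, plus strand: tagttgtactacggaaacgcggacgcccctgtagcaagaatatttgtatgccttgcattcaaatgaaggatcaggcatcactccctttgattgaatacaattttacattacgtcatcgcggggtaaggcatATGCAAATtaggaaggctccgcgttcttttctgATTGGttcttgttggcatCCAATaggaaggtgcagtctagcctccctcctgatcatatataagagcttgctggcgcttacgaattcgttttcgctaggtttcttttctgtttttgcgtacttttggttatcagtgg
Hist1h2ao has 3 CCAAT matches, Hist1h1c has 1, and Hist3h2a has 2 together with 1 octamer. In the family, 12 H2A genes start 236 to 306 bp from an H2B gene on the other strand, so that each couple shares the bases between them. The windows of such a couple can overlap, so a match can be counted for both genes and the windows are not all separate promoters.

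The libraries held 24.5 to 40.6 M counted reads each (median 32.6 M). All libraries in EpiSC medium, and 1 other (Setd1a KO in 2i, replicate 1), came from a later group of library numbers. In WT cells, EpiSC medium against 2i lowered all 9 naive pluripotency markers tested and raised all 7 primed markers, while general pluripotency markers summed to 608 to 2374 CPM (counts per 1000000 counted reads, with TMM factors) over all libraries. All 7 feeder or mesenchyme markers were also higher in EpiSC medium, with sums of 82.8 to 6740 CPM in WT cells in EpiSC medium and 1.94 to 8.68 CPM in WT cells in 2i. Bod1l RNA was 33.6 to 62.2 CPM in Bod1L KO and 166 to 345 CPM in Bod1L WT libraries. The RNAs of the other targeted genes did not pass the test (log2 fold -0.38 for Setd1a, adjusted p = 0.0957, and -0.28 for Kmt2b, adjusted p = 0.744, edgeR), and which exons were deleted is not given in the sources used here. The library labelled Mll2 WT in 2i, replicate 2, had 89.6 CPM of Kmt2b, below all 6 Mll2 KO libraries (113 to 145 CPM).

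Few reads fell on the clustered histone genes. They took 2348 to 14141 reads per library (median 4346), or 0.00755 to 0.0365% of all counted reads, and their levels summed to 76.5 to 436 CPM (median 137 CPM). The replacement histone genes, most of which give polyadenylated mRNAs, summed to 1586 to 3461 CPM (median 1942 CPM). Of the 65 members, 41 had at least 1 read in every library and 2 (Hist2h2aa1 and Hist2h3c1, which overlap the gene Gm20634 on the same strand) had none in any. A filter on low counts kept 55 members for testing: 5 of H1, 16 of H2A, 13 of H2B, 9 of H3 and 12 of H4. The other 10 were too low in all groups to be tested.

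H2A genes took 71.7% of the reads of the family, H2B 8.31%, H1 7.98%, H4 6.45% and H3 5.57%. Hist1h2ao averaged 62.0 CPM over the 36 libraries, with a lowest value of 15.0 CPM in Bod1L KO in EpiSC medium, replicate 2, and a highest of 270 CPM in the library labelled Mll2 WT in 2i, replicate 2. Hist1h2ai averaged 28.6 CPM (range 7.67 to 98.7 CPM) and Hist1h2an averaged 7.38 CPM (3.37 to 21.2 CPM). Divided by gene length, the levels were 129 CPM per kb for Hist1h2ao, 72.7 for Hist1h2ai and 18.8 for Hist1h2an, so these 3 H2A genes led every member of the other types on a scale on which genes can be compared. The annotation holds 480 bp of Hist1h2ao, and 393 bp of Hist1h2ai, which is its coding part alone.

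In H3 the leading gene was Hist1h3h, at 9.23 CPM per kb (0.854 to 11.0 CPM per library), which shares 93.9% of its 50-base stretches with other genes, followed by Hist1h3c at 2.16 and Hist2h3c2 at 1.29 CPM per kb. In H4, which forms the core tetramer with H3, the leading genes were Hist1h4i at 4.62, Hist1h4j at 3.96 and Hist1h4m at 2.48 CPM per kb. In H2B, the partner of H2A, they were Hist1h2bc at 3.51, Hist3h2ba at 3.17 and Hist1h2bl at 2.50 CPM per kb. The ranges over libraries of these leaders overlapped within each type.

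Among the linker histones, which bind the DNA between nucleosomes, Hist1h1c led at 5.55 CPM per kb, ahead of Hist1h1a at 2.22, Hist1h1d at 1.23, Hist1h1e at 0.726 and Hist1h1b at 0.558 CPM per kb. Hist1h1t, the testis linker histone, stood at 0.0680 CPM per kb and was not tested. Of the 12 couples of neighbouring H2A and H2B genes, some differed widely in level and some were close. Hist1h2ao averaged 62.0 CPM and its neighbour Hist1h2bq 1.61 CPM across 266 bp, whereas Hist1h2ac averaged 0.281 CPM and its neighbour Hist1h2bc 2.58 CPM across 275 bp. Per length, Hist2h2ac stood at 0.544 and its neighbour Hist2h2be at 0.549 CPM per kb, and Hist1h2ae at 1.13 and Hist1h2bg at 1.22 CPM per kb.

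**Figure D1:**
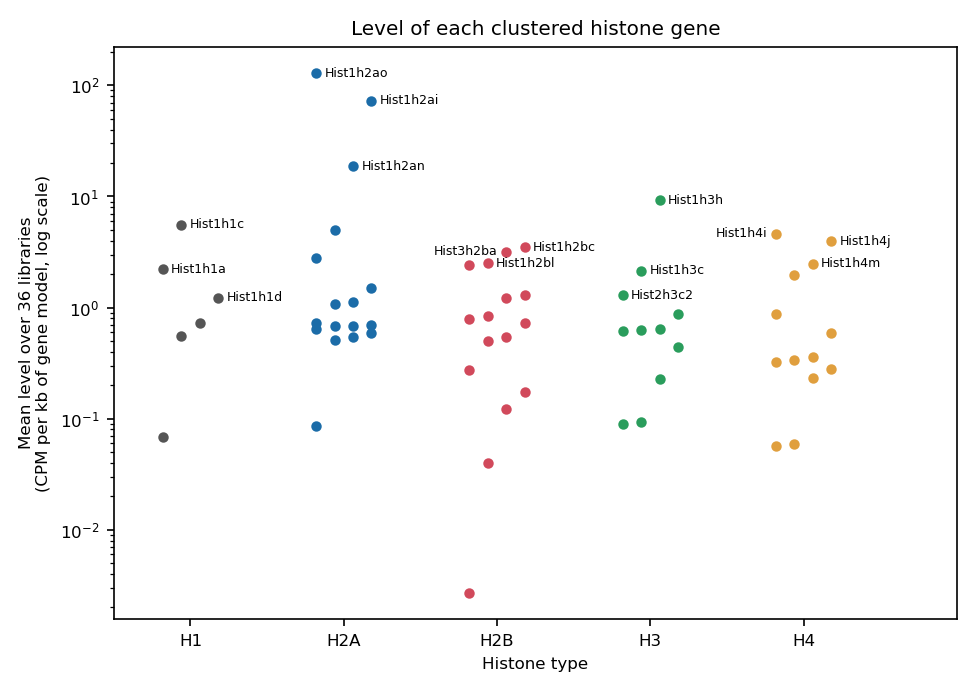
Mean level over the 36 libraries in CPM per kb of gene model, on a log axis, of each clustered histone gene with at least 1 read, by histone type; each point is 1 gene. Hist1h2ao (129 CPM per kb) and Hist1h2ai (72.7 CPM per kb) stand above all other members.

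Libraries of the same group differed widely. In Setd1a KO in 2i, 51 of the 55 tested members were higher in replicate 2 than in replicate 1, and in Setd1a WT in FCS 50 were higher in replicate 2. In Bod1L KO in FCS 47 were higher in replicate 2, and in Bod1L KO in EpiSC medium 50 were higher in replicate 1. The library labelled Mll2 WT in 2i, replicate 2, was higher than its replicate in 52 of 55, and its H2A genes summed to 375 CPM against 62.1 to 123 CPM in the other WT libraries in 2i. RNAs that carry no poly(A) tail (Rn7sk, Rpph1, Terc and others, 7 of 16 listed genes tested) summed to 70.8 CPM in Setd1a KO in 2i, replicate 2, to 44.1 CPM in Setd1a WT in FCS, replicate 2, and to 30.7 CPM in Bod1L KO in FCS, replicate 2. They summed to 22.4 CPM in the library labelled Mll2 WT in 2i, replicate 2, and to 8.42 CPM in Setd1a KO in EpiSC medium, replicate 1, where members other than H2A summed to 82.4 CPM. In Bod1L KO in EpiSC medium they summed to 2.82 CPM in replicate 1 and 2.94 CPM in replicate 2. In Setd1a KO in FCS, replicate 1, where all members summed to 246 CPM, they summed to 8.06 CPM. The part of such RNA in the results that follow was not tested.

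**Figure D2:**
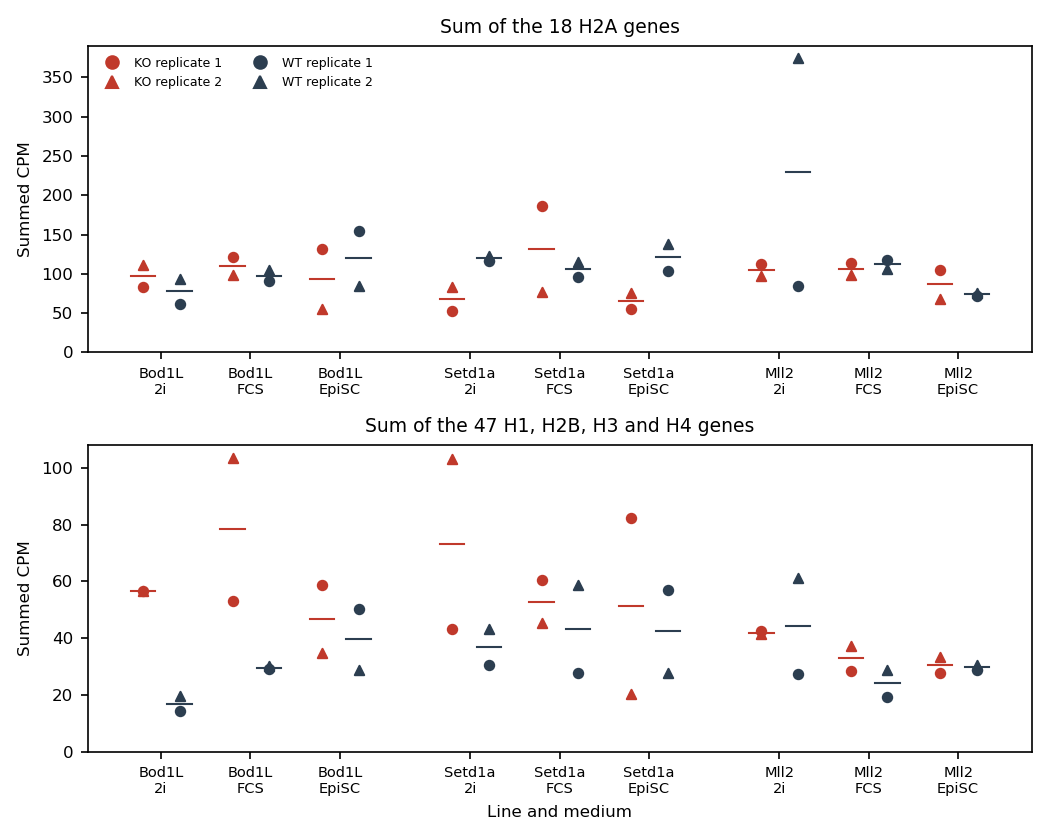
Summed CPM of the 18 H2A genes (upper panel) and of all other members (lower panel) in each library, by line and medium with KO left of WT; points are libraries and short lines are group means. The library labelled Mll2 WT in 2i, replicate 2, stands apart for H2A at 375 CPM, and Bod1L KO libraries lie above the WT libraries in 2i and FCS in the lower panel.

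The 2 leading H2A genes differed by line in opposite directions, and are described as shares of their common sum. Hist1h2ai made up 33.8, 68.1 and 74.1% (lowest, median and highest) of the reads of the couple in Bod1L KO libraries, and 61.4, 68.7 and 74.5% in Bod1L WT libraries. It made up 13.4, 16.3 and 21.3% in Setd1a KO and 13.1, 14.9 and 18.9% in Setd1a WT libraries, and 11.9, 16.0 and 18.2% in Mll2 KO and 14.7, 15.8 and 17.8% in Mll2 WT libraries. The Bod1L libraries did not overlap those of the other lines. The lowest Bod1L value, 33.8%, belonged to Bod1L KO in FCS, replicate 2, and the other 11 lay between 61.4 and 74.5%.

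The sum of both genes was much closer across lines: 82.2 ± 24.0 CPM in Bod1L KO and 82.6 ± 27.1 CPM in Bod1L WT, 72.4 ± 43.5 CPM in Setd1a KO and 100 ± 13.1 CPM in Setd1a WT, and 85.2 ± 14.8 CPM in Mll2 KO and 121 ± 103 CPM in Mll2 WT (SD, n = 6 each). The Mll2 WT value rested on the library labelled Mll2 WT in 2i, replicate 2: the other 5 averaged 79.1 ± 18.1 CPM (62.3 to 104 CPM). With or without it, the libraries of the lines overlapped in these sums. Whether the share differs in the RNA or in how reads of near-identical copies were assigned was not tested.

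**Figure D3:**
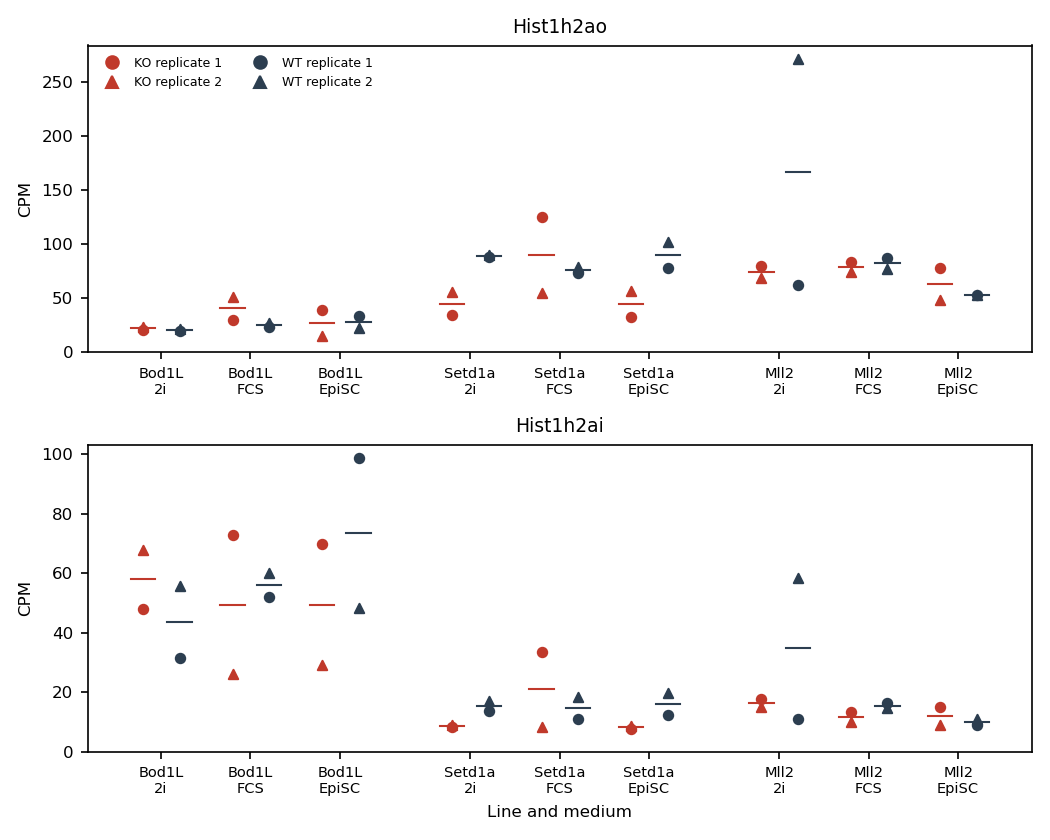
CPM of Hist1h2ao (upper panel) and Hist1h2ai (lower panel) in each library, by line and medium with KO left of WT; points are libraries and short lines are group means. Hist1h2ai is the higher of both genes in all Bod1L libraries but Bod1L KO in FCS, replicate 2, and Hist1h2ao is the higher in all Setd1a and Mll2 libraries.

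With the loss of Bod1L, averaged over the media, the linker histone gene Hist1h1c and the H2A gene Hist3h2a were higher in KO than in WT cells. These were 2 of the 55 members tested, set against 0.102% of the 23501 genes tested that were called higher (edgeR, adjusted p under 0.05), and no member was called lower. Hist1h1c had 9.47, 25.0 and 33.1 CPM (lowest, median, highest) in Bod1L KO and 2.47, 6.41 and 15.7 CPM in Bod1L WT libraries. The groups overlapped, but KO was the higher in all 6 pairs of equal medium and replicate number, and the log2 fold of 1.75 ± 0.42 passed the test (SE, adjusted p = 0.0225, edgeR).

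By medium, Hist1h1c had 20.5 and 9.47 CPM in Bod1L KO in EpiSC medium against 15.7 and 7.61 CPM in WT, a log2 fold of 0.36. It had 27.7 and 27.0 CPM in KO in 2i against 2.47 and 5.21 CPM in WT, a log2 fold of 2.83 ± 0.75 (adjusted p = 0.148, edgeR). In FCS it had 23.0 and 33.1 CPM in KO against 8.64 and 4.94 CPM in WT, a log2 fold of 2.05 (adjusted p = 0.693, edgeR). The KO and WT libraries overlapped in EpiSC medium and not in the other media, but the difference between media did not pass the test.

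Hist3h2a, an H2A gene of the small Hist3 cluster (chr11:58954685-58956830, plus strand, GRCm38, of which 708 bp overlap the gene Trim17 on the same strand), had 2.26 and 2.20 CPM in Bod1L KO in 2i against 0.948 and 0.817 CPM in WT. It had 2.39 and 2.39 CPM in KO in FCS against 0.930 and 0.848 CPM in WT, and 4.35 and 3.13 CPM in KO in EpiSC medium against 1.95 and 1.56 CPM in WT. No KO library overlapped a WT library, and the log2 fold was 1.28 ± 0.32 (SE, adjusted p = 0.0280, edgeR). This call was close to its threshold: it was lost without any 1 of the 12 libraries but Bod1L KO in EpiSC medium, replicate 2, with adjusted p between 0.0557 and 0.101 for those 11, and without a filter on low counts (adjusted p = 0.0994). The call of Hist1h1c was lost without any 1 of 6 libraries, namely replicate 2 of KO in 2i, KO in FCS, WT in FCS or WT in EpiSC medium, or replicate 1 of KO in EpiSC medium or WT in 2i, with adjusted p up to 0.124.

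The other members lay mostly above 0 as well. The log2 fold was above 0 for 50 of the 55 members, with a median of 0.61 against 0.05 for all genes tested, and 13 members had an unadjusted p under 0.05, as did 8.18% of all genes. By type, all 5 H1, all 13 H2B, all 9 H3 and all 12 H4 members lay above 0, with medians of 0.89, 0.79, 0.64 and 0.75, while 11 of 16 H2A members did, with a median of 0.25. The levels of all members other than H2A summed to 60.6 ± 22.8 CPM in Bod1L KO and 28.7 ± 12.3 CPM in Bod1L WT libraries (SD, n = 6), with 35.0, 56.6 and 104 CPM as the lowest, median and highest in KO and 14.3, 29.0 and 50.3 CPM in WT. Much of this difference is Hist1h1c itself; without it the sums were 37.1 ± 16.9 CPM in KO and 21.3 ± 8.14 CPM in WT libraries, with 25.5, 29.9 and 70.6 CPM in KO and 11.9, 20.9 and 34.6 CPM in WT, which overlapped. H2A genes summed to 100 ± 27.7 CPM in KO and 98.3 ± 31.1 CPM in WT libraries. The RNAs without a poly(A) tail had a median log2 fold of 1.12 in the same comparison, with none called. They summed to 21.0 CPM in KO in 2i, replicate 2, and to 30.7 CPM in KO in FCS, replicate 2. In the other Bod1L KO libraries they summed to 2.15 to 3.25 CPM, and in Bod1L WT libraries to 2.6 to 6.3 CPM. Their part in the histone values was not tested.

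With the replicate numbers as a block, 7 members were called higher in the Bod1L average, against 2.11% of all genes. Beside Hist1h1c and Hist3h2a these were the H2B genes Hist1h2bc, Hist1h2bq and Hist2h2be, the H4 gene Hist1h4i and the H3 gene Hist2h3c2, named here after their values were seen. Hist1h2bc, whose annotation has 2 exon blocks, had 2.73, 4.27 and 7.00 CPM in Bod1L KO and 1.40, 1.67 and 2.81 CPM in Bod1L WT libraries, and a log2 fold of 1.25 with the block (adjusted p = 0.00383, edgeR) and 1.27 without it (adjusted p = 0.120, edgeR). Hist1h2bq had 2.17, 2.35 and 3.24 CPM in KO and 0.724, 1.20 and 1.83 CPM in WT libraries, so that the groups did not overlap. It shares 97.3% of its 50-base stretches with Hist1h2br, and both together had 2.20, 2.35 and 3.24 CPM in KO and 0.724, 1.20 and 1.83 CPM in WT libraries. Hist1h4i had 0.789, 1.82 and 5.94 CPM in KO and 0.491, 0.951 and 1.20 CPM in WT libraries, which overlapped. DESeq2 called 4 members higher, against 0.434% of all genes: Hist3h2a, Hist1h1c, Hist1h4i and Hist1h2bc.

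In the single media of the Bod1L line no member was called with edgeR, where 0.374% of all genes were called in 2i, 0.191% in FCS and 0.438% in EpiSC medium. At an unadjusted p under 0.05 there were 7 members in 2i (4.21% of all genes), 9 in FCS (4.57%) and 0 in EpiSC medium (4.88%). DESeq2 called 1 member in 2i (0.851% of all genes), 0 in FCS (0.698%) and 0 in EpiSC medium (1.06%). The log2 fold was above 0 for 48 of 55 members in 2i (median 0.95), 49 in FCS (median 0.99) and 32 in EpiSC medium (median 0.18). With the replicate block, Hist1h1c and Hist2h3c2 were called in 2i (2.8% of all genes), and Hist1h1c and Hist1h2bc in FCS (1.66% of all genes).

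With the loss of Setd1a, averaged over the media, the same 2 symbols, Hist3h2a and Hist1h1c, were called higher among the 55 members, where 3.29% of all genes were called higher. Hist3h2a had 0.944 and 0.785 CPM in Setd1a KO in 2i against 0.244 and 0.348 CPM in WT. It had 2.00 and 3.34 CPM in KO in FCS against 0.405 and 1.31 CPM in WT, and 3.68 and 2.56 CPM in KO in EpiSC medium against 0.711 and 0.691 CPM in WT. KO and WT did not overlap in any medium, and the log2 fold of 1.77 ± 0.33 (SE, adjusted p = 9.515e-04, edgeR) passed the threshold in every alternative and without any 1 of the 12 libraries.

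Hist1h1c had 1.32, 9.12 and 12.6 CPM (lowest, median, highest) in Setd1a KO and 1.496, 2.34 and 5.79 CPM in Setd1a WT libraries, was higher in KO in 5 of 6 pairs, and had a log2 fold of 1.54 ± 0.42 (SE, adjusted p = 0.0220, edgeR). The groups overlapped through Setd1a KO in EpiSC medium, where replicate 1 had 12.6 CPM and replicate 2 had 1.32 CPM against 3.81 and 2.00 CPM in WT. The value rested on single libraries: without Setd1a KO in EpiSC medium, replicate 1, the log2 fold was 0.74 (adjusted p = 0.287, edgeR), and the call was also lost without replicate 2 of KO in 2i, KO in FCS or WT in EpiSC medium, or replicate 1 of WT in 2i or WT in FCS (adjusted p of at least 0.0577). Setd1a KO in EpiSC medium, replicate 1, held 3998 CPM of feeder or mesenchyme markers against 1083 CPM in replicate 1 of WT. Primitive endoderm markers summed to 118, 248 and 1140 CPM (lowest, median, highest) in Setd1a KO and 39.3, 159 and 329 CPM in Setd1a WT libraries, with 2 of 8 called higher, and the part of such cells in the results of this line was not tested.

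Of the 55 members, 39 had a log2 fold above 0 in the Setd1a average, with a median of 0.22 against 0.07 for all genes tested, and 6 had an unadjusted p under 0.05, as did 23.2% of all genes. With the library group as a term, which in this line sets Setd1a KO in 2i, replicate 1, apart, 44 lay above 0 with a median of 0.43. By type, all 12 H4 members (median 0.48), 4 of 5 H1 (0.62), 10 of 13 H2B (0.19) and 6 of 9 H3 members (0.19) lay above 0, against 7 of 16 H2A members (-0.14). Members other than H2A summed to 59.1 ± 29.8 CPM in Setd1a KO and 40.9 ± 14.4 CPM in Setd1a WT libraries, and H2A genes to 88.4 ± 49.3 CPM in KO and 115 ± 14.8 CPM in WT (SD, n = 6 each). These sums overlapped between genotypes; for H2A they did so through Setd1a KO in FCS, replicate 1 (186 CPM), while the other 5 KO libraries (53.2 to 83.0 CPM) lay below all WT libraries (95.9 to 138 CPM) and KO was lower in 5 of 6 pairs. With the replicate block 6 members were called higher (14.3% of all genes) and 1 lower (11.7% of all genes). The higher were Hist3h2a, Hist1h1c, Hist1h2bc, Hist2h2be, Hist1h4i and Hist1h2bq, each of which the block also called in the Bod1L average, and the lower was Hist1h2ao (log2 fold -0.65, adjusted p = 0.0380, edgeR). DESeq2 called 4 members higher, where it called 6.2% of all genes higher.

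In the single media of the Setd1a line no member was called with edgeR, where 1.69% of all genes were called in 2i, 0.762% in FCS and 1.54% in EpiSC medium. At an unadjusted p under 0.05 there were 9 members in 2i (13.0% of all genes), 1 in FCS (6.57%) and 2 in EpiSC medium (12.2%). DESeq2 called 1 member in 2i (3.54% of all genes), 0 in FCS (1.54%) and 1 in EpiSC medium (3.28%). The log2 fold was above 0 for 42 of 55 members in 2i (median 0.83; 48 and a median of 1.40 with the library group as a term), 32 in FCS (median 0.21) and 27 in EpiSC medium (median -0.01). With the block 4 members were called in 2i (12.4% of all genes), and Hist3h2a in FCS (3.91% of all genes) and in EpiSC medium (11.9% of all genes).

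**Figure D4:**
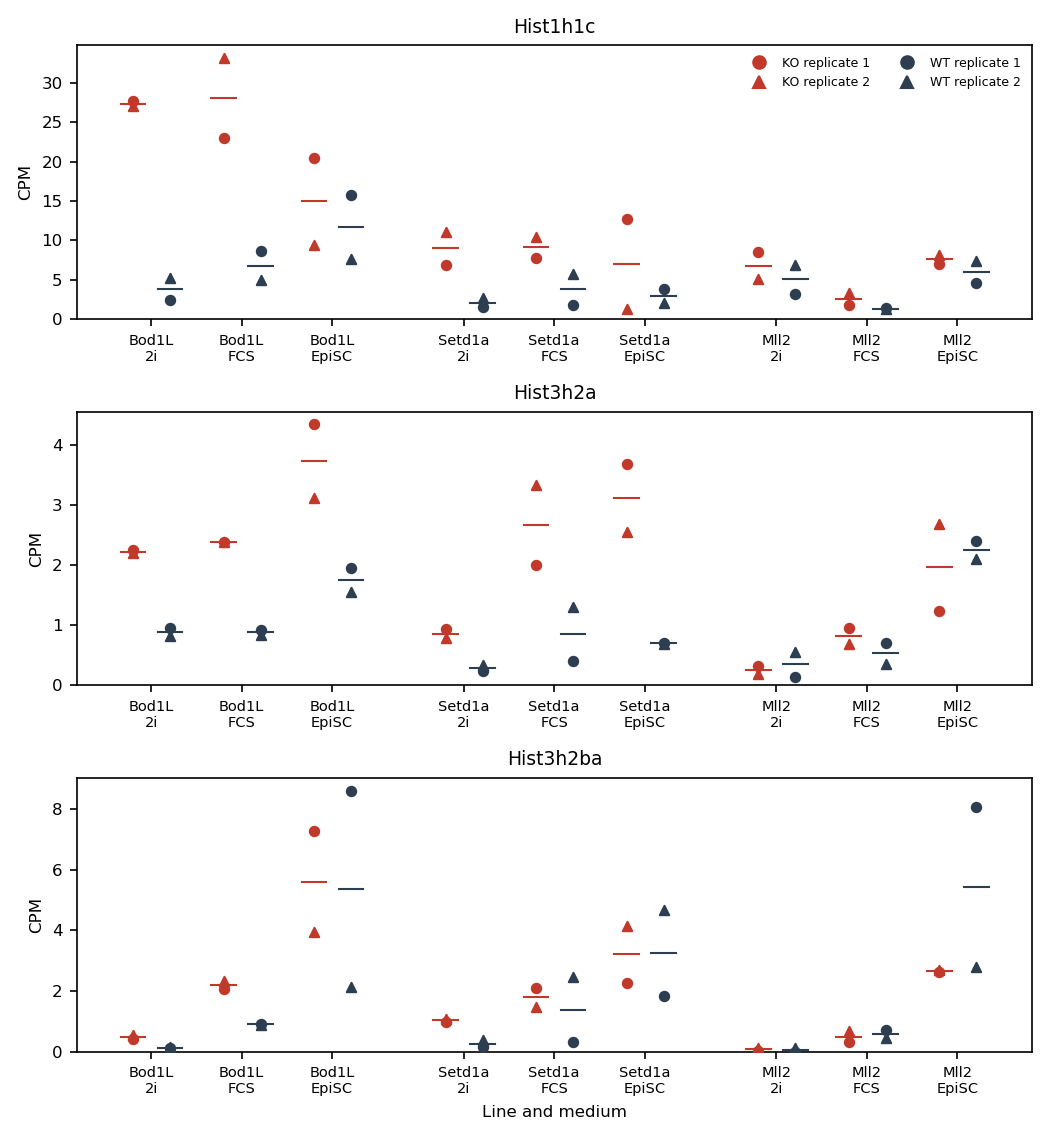
CPM of Hist1h1c, Hist3h2a and Hist3h2ba in all 36 libraries, by line and medium with KO left of WT; points are libraries and short lines are group means. Hist3h2a was higher in every KO library of the Bod1L and Setd1a lines than in the WT libraries of the same line and medium, while in the Mll2 line KO and WT libraries overlapped in every medium.

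With the loss of Mll2 no member was called, averaged over the media, where 0.694% of all genes were called (edgeR); 2 members had an unadjusted p under 0.05 (8.43% of all genes) and DESeq2 called 0 (1.66% of all genes). The log2 fold was above 0 for 28 of the 55 members, with a median of 0.01 against -0.02 for all genes. Hist1h1c had 8.50 and 5.10 CPM in Mll2 KO in 2i against 3.17 and 6.93 CPM in WT, 1.85 and 3.36 CPM in KO in FCS against 1.37 and 1.34 CPM in WT, and 7.00 and 8.18 CPM in KO in EpiSC medium against 4.56 and 7.38 CPM in WT. Its log2 fold was 0.57 ± 0.41 (adjusted p = 0.819, edgeR), and that of Hist3h2a was 0.01 ± 0.37 (adjusted p = 1.000, edgeR). H2A genes summed to 99.1 ± 16.6 CPM in Mll2 KO and 138 ± 117 CPM in Mll2 WT libraries (SD, n = 6), where the WT libraries other than the library labelled Mll2 WT in 2i, replicate 2, lay between 72.3 and 117 CPM and averaged 91.2 ± 19.9 CPM. In the single media edgeR called 0 members, where 0.464% of all genes were called in 2i, 0.0% in FCS and 0.0% in EpiSC medium; unadjusted p was under 0.05 for 1 member in 2i (10.3% of all genes), 1 in FCS (2.62%) and 0 in EpiSC medium (4.05%). DESeq2 called 0 members in 2i (1.37% of all genes), in FCS (0.0213%) and in EpiSC medium (0.187%). The log2 fold was above 0 for 17 of 55 members in 2i, 41 in FCS and 28 in EpiSC medium.

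**Figure D5:**
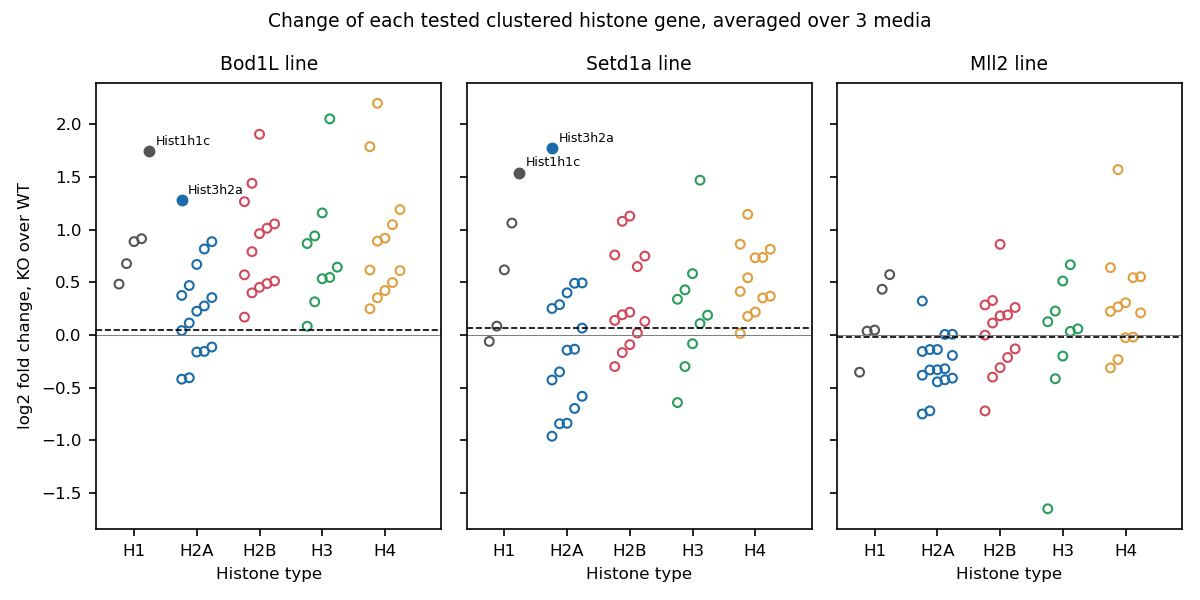
Log2 fold change (KO over WT, averaged over media) of the 55 tested members in the Bod1L, Setd1a and Mll2 lines, by histone type; each point is 1 gene, filled where called, and the dashed line is the median of all genes tested. In the Bod1L line all H1, H2B, H3 and H4 members lie above 0, and in the Setd1a line all H4 members do.

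The difference between the Bod1L and Setd1a effects, and the differences between media within each line, were tested themselves. The Mll2 effect was not tested against that of another line. The Bod1L effect minus the Setd1a effect was called for 0 members (0.00426% of all genes, edgeR), with 1 member (Hist2h2ab) at an unadjusted p under 0.05 (5.12% of all genes) and 0 called by DESeq2 (0.132%). Whether an effect differed between media was called for 0 members in the Bod1L line (0.0% of all genes), the Setd1a line (0.0%) and the Mll2 line (0.00426%), with 2, 0 and 0 members at an unadjusted p under 0.05 (1.04%, 2.0% and 3.4% of all genes). DESeq2 called 0 members in each line (0.0%, 0.00426% and 0.0979% of all genes). The unequal numbers of members above 0 between media were thus not shown, in any line, to be a difference between media.

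Of 17 tested genes listed for histone mRNA ends, 2 were lower in the Bod1L average and the same 2 in the Setd1a average. In the Mll2 average 0 were lower, and the list medians were -0.09, -0.20 and 0.03. Of all 23501 genes tested, 452, 1308 and 149 were called lower in these averages. The list also holds genes of general cleavage and polyadenylation, such as Wdr33, and Npat, an activator of histone genes. Cpsf3, the endonuclease that cuts histone pre-mRNA after the stem-loop and other pre-mRNAs before the poly(A) tail is added, had 34.3 and 37.0 CPM in Bod1L KO in 2i against 79.3 and 80.1 CPM in WT, 59.1 and 45.3 CPM in KO in FCS against 101 and 88.3 CPM in WT, and 74.3 and 67.0 CPM in KO in EpiSC medium against 89.4 and 94.5 CPM in WT. No KO library overlapped a WT library, and the log2 fold was -0.80 ± 0.11 (SE, adjusted p = 7.899e-05, edgeR). In the Setd1a line Cpsf3 had 48.6 to 83.9 CPM in KO and 92.1 to 121 CPM in WT libraries, again without overlap, and a log2 fold of -0.72 ± 0.11 (SE, adjusted p = 1.181e-04, edgeR).

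Lsm10, a subunit of the U7 snRNP that guides this cut to histone pre-mRNA, had 3.57 to 6.94 CPM in Bod1L KO and 6.45 to 13.9 CPM in Bod1L WT libraries with overlap (log2 fold -0.81 ± 0.17, adjusted p = 0.00674, edgeR). It had 4.38 to 6.499 CPM in Setd1a KO and 8.86 to 11.6 CPM in Setd1a WT libraries without overlap (log2 fold -0.98 ± 0.17, adjusted p = 4.296e-04, edgeR). In the Mll2 line the log2 folds were -0.13 for Cpsf3 (adjusted p = 0.866) and -0.23 for Lsm10 (adjusted p = 0.822, edgeR). Slbp itself had log2 folds of -0.04, -0.35 and -0.05 in the Bod1L, Setd1a and Mll2 lines and was not called. The most abundant genes of the list, Srrt (242 CPM) and Ncbp1 (186 CPM), which bind the cap complex or form it, were not called. Whether the lower Cpsf3 and Lsm10 and the higher Hist1h1c and Hist3h2a are related was not tested.

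DNA replication and S-phase genes (24 tested) were called in the Setd1a average for 6 lower genes, among them the activator E2f1 (log2 fold -0.57, adjusted p = 0.0178), Uhrf1, which keeps DNA methylation through replication (-0.64, adjusted p = 0.0258), and the ribonucleotide reductase subunit Rrm1 (-0.45, adjusted p = 0.0311, edgeR), with a list median of -0.41. In the Bod1L and Mll2 averages 0 were called, with medians of -0.02 and 0.01. The list summed to 2200, 3672 and 4209 CPM (lowest, median, highest) in Setd1a KO and 4040, 4831 and 5371 CPM in Setd1a WT libraries. The most abundant of the list were the helicase subunits Mcm5 (398 CPM) and Mcm2 (395 CPM). Of 14 histone chaperones, led by Nasp (794 CPM) and Atrx (694 CPM), 1 was called: Chaf1b, a subunit of the assembly factor CAF-1, was lower in the Setd1a average (-0.67, adjusted p = 0.0147, edgeR). For both lists, 1308 of all 23501 genes tested were called lower in the Setd1a average.

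Of 7 genes of histone mRNA decay, led by Dcp2 (283 CPM) and Upf1 (156 CPM), none was called in the 3 averages. Of 11 replacement histone genes, led by H3f3b (527 CPM) and H2afz (449 CPM), 1 was called: H2afy2, a macroH2A gene, was lower in the Mll2 average (-1.21, adjusted p = 0.0148, edgeR). In that average 149 of all 23501 genes tested were called lower. Among the RNAs without a poly(A) tail, led by Rn7sk (3.33 CPM) and Rpph1 (3.24 CPM), the telomerase RNA Terc was higher in the Setd1a average (2.15 ± 0.54, adjusted p = 0.0132, edgeR). In the Setd1a average 3.29% of all genes were called higher. Markers of 2-cell-like cells summed to 0.243, 90.6 and 425 CPM (lowest, median, highest) in Bod1L KO and 0.0273, 17.0 and 95.6 CPM in Bod1L WT libraries, and to 1.15, 160 and 738 CPM in Setd1a KO and 0.156, 53.6 and 147 CPM in Setd1a WT libraries. Of the 6 markers 1 was called, Zscan4c in the Setd1a average (2.75, adjusted p = 0.0482, edgeR), and the part of such cells in the histone results was not tested.

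Between the media, WT cells differed in a few members, where large shares of all genes changed. EpiSC medium against 2i had 4 members higher (25.1% of all genes) and 4 lower (27.4% of all genes), of 55. EpiSC medium against FCS had 3 higher (20.4% of all genes) and 2 lower (20.6% of all genes), and 2i against FCS had 0 higher (14.5% of all genes) and 3 lower (13.3% of all genes). The comparisons share libraries. The medians of the members were -0.33, -0.28 and 0.00 on the log2 scale, with 21, 13 and 27 of 55 above 0. The first 2 medians turn with the library group as a term, as given below.

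Both genes of the Hist3 cluster were higher in EpiSC medium. Hist3h2ba, its H2B gene, had 1.85, 3.74 and 8.60 CPM (lowest, median, highest) in WT cells in EpiSC medium, against 0, 0.138 and 0.383 CPM in 2i and 0.312, 0.796 and 2.47 CPM in FCS. EpiSC libraries did not overlap 2i libraries, and the log2 fold was 5.08 ± 0.58 against 2i (adjusted p = 2.535e-07) and 2.33 ± 0.49 against FCS (adjusted p = 6.416e-04, edgeR). It was also lower in 2i than in FCS (-2.76 ± 0.56, adjusted p = 7.010e-04, edgeR). Hist3h2a had 0.691, 1.75 and 2.40 CPM in EpiSC medium, against 0.144, 0.452 and 0.948 CPM in 2i and 0.360, 0.781 and 1.30 CPM in FCS, with log2 folds of 1.63 ± 0.33 against 2i (adjusted p = 2.788e-04) and 0.91 ± 0.32 against FCS (adjusted p = 0.0260, edgeR). The call against FCS was lost without any 1 of 5 of the 12 libraries, with adjusted p up to 0.0778 without Mll2 WT in FCS, replicate 2.

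Hist2h2be, an H2B gene of Hist2, had 0.909, 2.41 and 3.06 CPM in EpiSC medium, against 0.427, 0.695 and 1.27 CPM in 2i and 0.330, 0.811 and 1.07 CPM in FCS, with log2 folds of 1.34 ± 0.33 against each (adjusted p = 0.00182 and 0.00264, edgeR). Hist1h2be, another H2B gene, had 0.370, 0.540 and 0.940 CPM in EpiSC medium and 0.0916, 0.183 and 0.324 CPM in 2i (log2 fold 1.52 ± 0.43, adjusted p = 0.00535, edgeR), and it was lower in 2i than in FCS (-1.98 ± 0.43, adjusted p = 0.00136, edgeR). Of its length 320 bp overlap the gene Gm11398 on the same strand. Hist1h2be also shares 10.1% of its 50-base stretches with the linker histone gene Hist1h1e, and the part of Hist1h1e RNA in its counts was not tested.

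In the other direction, the H2A gene Hist1h2ag had 0.216, 0.317 and 0.824 CPM in EpiSC medium, against 0.474, 0.940 and 2.40 CPM in 2i and 0.673, 0.872 and 1.45 CPM in FCS (log2 folds -1.47 ± 0.39, adjusted p = 0.00310, and -1.33 ± 0.39, adjusted p = 0.00828, edgeR). The linker histone gene Hist1h1a had 0.262, 0.388 and 3.67 CPM in EpiSC medium and 0.424, 1.83 and 5.98 CPM in 2i, which overlapped (-1.52 ± 0.55, adjusted p = 0.0235, edgeR), and its call was lost without any 1 of 6 of the 12 libraries, with adjusted p up to 0.132 without the library labelled Mll2 WT in 2i, replicate 2. The other members lower in EpiSC medium were Hist1h2ac and Hist1h2ae against 2i and Hist1h2ae against FCS, and Hist1h3d, with very few reads, was the third member lower in 2i than in FCS. These calls were weak: without 1 library Hist1h2ae lost its call in 10 of 12 fits against 2i and 5 of 12 against FCS, Hist1h2ac in 7 of 12 and Hist1h3d in 11 of 12, and Hist1h3d was also lost with DESeq2 (adjusted p = 0.117), without a filter (adjusted p = 0.163, edgeR) and with the replicate block (adjusted p = 0.0506, edgeR). Of the S-phase genes, 21 of 24 were lower in EpiSC medium than in 2i (median -0.81), and 15 were lower and 1 higher than in FCS (median -0.60).

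All EpiSC libraries were in the later group of library numbers, and WT libraries in the other media were not, so medium and library group cannot be told apart among WT cells. With the library group as a term, which rests on Setd1a KO in 2i alone, 1 member was called in EpiSC medium against 2i and 0 against FCS, and the members' medians turned to 1.31 (45 of 55 above 0) and 1.09 (52 of 55 above 0). The feeder or mesenchyme markers, at 82.8 to 6740 CPM in WT cells in EpiSC medium, moved with these results and their part was not tested.

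Between the WT lines, averaged over the media, the Setd1a line against the Bod1L line had 13 of 55 members higher (7.65% of all genes) and 1 lower (4.66% of all genes). The Mll2 line against the Bod1L line had 2 higher (2.48% of all genes) and 1 lower (2.17% of all genes). Both comparisons share the Bod1L libraries. The members' medians were 0.58 and 0.16. Markers of naive pluripotency differed between the lines too: 8 of 9 were called higher in the Setd1a line (median 1.70) and 1 of 9 in the Mll2 line (median 0.67). They summed to 553 and 363 CPM in Setd1a WT in EpiSC medium, against 17.6 and 38.3 CPM in Bod1L WT in EpiSC medium, and the part of cell state in these results was not tested.

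Hist1h2ao had 73.1, 83.4 and 102 CPM (lowest, median, highest) in Setd1a WT and 53.0, 70.0 and 270 CPM in Mll2 WT libraries, against 19.8, 23.3 and 33.7 CPM in Bod1L WT libraries, with no overlap (log2 folds 1.77 ± 0.29, adjusted p = 2.815e-04, and 1.86 ± 0.29, adjusted p = 2.821e-04, edgeR). Hist1h2ai went the other way, with 11.0, 15.4 and 19.6 CPM in Setd1a WT and 9.13, 12.9 and 58.6 CPM in Mll2 WT libraries, against 31.6, 53.9 and 98.7 CPM in Bod1L WT libraries (-1.88 ± 0.37, adjusted p = 0.00163, and -1.69 ± 0.37, adjusted p = 0.00755, edgeR), where Mll2 and Bod1L libraries overlapped through the library labelled Mll2 WT in 2i, replicate 2. These opposite differences are those of the near-identical couple described above, and the sum of both did not separate the lines.

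The H4 genes differed by line as well. Hist1h4i had 2.14, 3.78 and 5.29 CPM in Setd1a WT and 1.40, 2.77 and 5.08 CPM in Mll2 WT libraries, against 0.491, 0.951 and 1.20 CPM in Bod1L WT libraries, with no overlap (log2 folds 2.08 ± 0.35, adjusted p = 3.457e-04, and 1.70 ± 0.35, adjusted p = 0.00409, edgeR). Of 12 H4 genes tested 6 were higher in the Setd1a line, with a median of 1.64, among them Hist1h4j (1.55 ± 0.37, adjusted p = 0.00796) and Hist1h4m (1.73 ± 0.43, adjusted p = 0.0104, edgeR). Hist1h2bb, an H2B gene, was higher by 2.26 ± 0.62 (adjusted p = 0.0177, edgeR), a call lost without any 1 of 4 libraries (adjusted p up to 0.0722) and without a filter (adjusted p = 0.0594, edgeR), and 2 of 9 H3 genes were higher. The count in the Setd1a line rested on single libraries, with 4 to 16 members called when 1 library was left out and 4 without Setd1a WT in EpiSC medium, replicate 1, where Hist1h4m, which shares 89.8% of its 50-base stretches with Hist1h4n, also lost its call (adjusted p = 0.0639), whereas Hist1h2ao, Hist1h2ai and Hist1h4i in both comparisons and Hist1h4j in the Setd1a line kept their calls in every alternative run.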

How the data were processed

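The members and the gene lists set beside them were chosen with earlier results of these data known. Per the labels' protocols, Trizol RNA went through poly(A) selection and rRNA removal and was made into strand-specific libraries with the ScriptSeq kit. The deposited counts are whole reads per gene, counted by the authors with featureCounts 1.5.2 over gene models of Ensembl 87, per the file headers; the command counts reads of the reverse strand and drops secondary alignments and those of mapping quality below 1. The aligner was GSNAP and the build GRCm38 (mm10), per the submitters' processing notes. The command in the header sets no option to count reads that overlap more than 1 gene on the same strand, so such reads are lost to both genes. Reads that align equally well to several near-identical copies may be lost or may go to 1 of them, which blurs the counts of those copies.

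Counts were tested with edgeR 4.0.16 in R 4.3.3 (quasi-likelihood test, TMM normalization, filterByExpr with a minimum count of 10) in a model of all 18 groups with 36 libraries, on 23501 genes, and p-values were adjusted by Benjamini-Hochberg over all of them with a threshold of 0.05. An average over media weights each medium equally. CPM divide the counts by the library total times its TMM factor. The test was run on simulated counts for the Bod1L average, with 50 genes changed at each size among 21314 genes. It called 70% of genes changed 1.5-fold and 100% of those changed 2-, 3- and 4-fold, with 8 false calls. The simulated counts had a smaller spread between libraries than the data (common dispersion 0.149), and most members lay below the level of the changed genes. These rates therefore do not carry over to the members, and a member that was not called may still have changed.

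The labels do not say that replicate numbers pair KO and WT libraries, but the deviations of libraries with the same number correlated in all 9 line and medium settings (0.313 to 0.871), so the fit with the number as a block is given where it changes a call. Alternatives were DESeq2 1.42.0, no filter, this block, the library group as a term, and leaving out each library in turn. For comparisons between media or between lines, the replicate block was instead 1 term for the replicate number, shared by all lines and media. The text names, per type, the 3 members of highest CPM per kb and all H1 members; per comparison, up to 6 called members in order of p; and per list, the 2 genes of highest CPM and up to 3 called. Exceptions are said where they stand. Precision rests on few reads per member and on 2 replicates a group.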

Additional observations from a re-analysis of the deposited data

Results flagged for a closer look

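Dixon's test was run on sums of the histone types, and on the share of Hist1h2ai, in 78 groups of 6 libraries, by line and genotype and by medium and genotype. In 22 of them the highest or lowest library stood apart from the others. Chance gives about 1 in 20 for independent groups, each drawn from 1 normal distribution. The groups here mix media or lines and reuse the same libraries, so the 22 cannot be set against that rate. The sums are in CPM, and several flags are the same library seen in different groupings.

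The library labelled Mll2 WT in 2i, replicate 2, was flagged for H1 at 16.4 (others 4.09 to 7.42), for H4 at 15.5 (4.85 to 8.47), for H2A at 375 (62.1 to 123 among WT libraries in 2i, and 72.3 to 117 among Mll2 WT libraries) and for all members at 436 (76.5 to 167, and 101 to 136).

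Bod1L KO in FCS, replicate 2, was high for H2B at 26.1 (others 9.95 to 14.5), H3 at 16.9 (4.07 to 7.28) and H4 at 19.8 (4.00 to 7.09), and low for the share of Hist1h2ai at 33.8% (64.2 to 74.1%). Setd1a KO in 2i, replicate 2, was high for H2B at 23.9 (7.33 to 13.4), H3 at 25.2 (6.495 to 13.3) and H4 at 32.0 (5.08 to 13.3).

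Setd1a WT in FCS, replicate 2, was high for H2B at 17.0 (8.01 to 9.36), H4 at 17.1 (4.47 to 8.89) and all members at 174 (120 to 136). Setd1a KO in EpiSC medium, replicate 1, was high for H3 at 16.2 (2.35 to 7.19) and H4 at 24.8 (4.00 to 7.13), and Setd1a WT in EpiSC medium, replicate 1, for H3 at 15.8 (2.65 to 6.55). Setd1a KO in FCS, replicate 1, was high for H2A at 186 (53.2 to 83.0), Bod1L WT in EpiSC medium, replicate 1, for H1 at 18.6 (3.95 to 9.14), and Mll2 KO in EpiSC medium, replicate 2, was low for H2A at 68.0 (97.4 to 113).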

How the results depend on the processing

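Counts of called members moved with the tool, the filter and the block. In the Bod1L line, DESeq2 called 1 in 2i and 4 in the average, and the data without a filter gave 1 in 2i, 1 in FCS and 1 in the average; the replicate block gave 2, 2 and 7. In the Setd1a line, DESeq2 called 1 in 2i, 1 in EpiSC medium and 4 in the average, no filter gave 1 in 2i and 4 in the average, and the replicate block gave 4 in 2i, 1 in each of the other media and 7 in the average; the block changed the count of no other genotype comparison by over 1.5 times, and between media it ended the call of Hist1h3d (adjusted p = 0.0506). No filter gave 1 in Mll2 in 2i and 5 between the Mll2 and Bod1L lines. The library group as a term left 1 call for EpiSC medium against 2i and 0 against FCS, and turned the direction of Hist1h2ae (log2 fold 0.48 and 0.28) and of the members' medians (1.31 and 1.09); the cause was not tested.

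When 1 library was left out, the counts were 0 to 2 in the Bod1L average (0 without any of 6 libraries, 1 without any of 5), 1 to 4 in the Setd1a average (4 without Setd1a KO in EpiSC medium, replicate 2; 1 without any of 6), 0 to 1 in Mll2 in 2i (1 without Mll2 WT in 2i, replicate 1), 5 to 10 for EpiSC medium against 2i, 3 to 7 against FCS, 2 to 4 for 2i against FCS, 4 to 16 between the Setd1a and Bod1L lines (4 without Setd1a WT in EpiSC medium, replicate 1) and 3 between the Mll2 and Bod1L lines. Of all recomputed values, 662 kept their direction and side of the threshold, 162 lost a call, 54 counts or levels moved and 2 turned. The 65 genes shared 2348 to 14141 reads per library, which limits the precision of single members.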

Other observations

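A description chosen after the calls were seen: the 7 members called with the replicate block in the Bod1L average have gene models of 727 to 2620 bp (median 1560 bp), against a median of 480 bp over the 55 members tested. Of the 17 members over 700 bp, 17 lay above 0 in the Bod1L average (median log2 fold 0.91), 16 in the Setd1a average (median 0.62) and 15 in the Mll2 average (median 0.21). Of the 38 others, 33, 23 and 13 lay above 0 (medians 0.48, 0.15 and -0.20). A poly(A) signal, AATAAA on the gene's strand, stood after the coding part in the annotated transcripts of 5 of the 7 and of 15 of the 55. No test was made of these values, since the split by length followed the calls.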
